A study of Arabidopsis thaliana with 6 samples.

Results

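The genes described here lie on chromosome 3 (Chr.3) between its end and the breakpoint before AT3G20040. This stretch is joined to part of chromosome 2 (Chr.2) in the extra chromosome of tertiary trisomy 2 (*AAa*), so that its genes are present in 3 copies in *AAa* and in 2 copies in trisomy 2 (*AAA*) and in the wild type (WT). A gene was counted when its probe set on the array named a single locus with a number below AT3G20040 and its mean log2 signal over the 6 arrays reached 6.28, a signal of 77.7. For a gene with several probe sets the brightest was used. The array held 1003 such genes, 994 after a few loci were left out by the rule, and 650 of these (65.4%) passed the brightness threshold, of 7246 expressed genes in all. The other 344 were too dim and are not described. AT3G15420 and AT3G09360 lay just inside the threshold, both with a mean log2 signal of 6.32, and AT3G13682 and AT3G16175 lay just outside it at 6.28 and 6.27. Since the mean includes *AAa*, 11 of the 650 had a mean over WT and *AAA* below the threshold and passed only through *AAa*, and 10 had a WT mean below it.

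RNA came from rosette leaves of 26-day-old plants kept at 22 °C under 16 h of light and 8 h of dark, pooled from 21 to 35 plants per extract. Each karyotype was measured on 2 ATH1 arrays. WT is diploid. *AAA* has a complete extra Chr.2. *AAa* has an extra chromosome made of Chr.2 up to AUR2 (an aurora kinase gene, AT2G25880), where the *aur2-1* T-DNA lies, and of the Chr.3 end, so both trisomics share 3 copies of Chr.2 up to AUR2 and *AAA* alone has 3 copies of the rest of Chr.2. Both trisomics descend from the *aur2-1* T-DNA line, *AAA* plants being those without the insertion. No diploid sib of that line is among the arrays, so line and karyotype cannot be told apart in the comparisons with WT. Trisomic plants were picked by their round leaves and then genotyped. The sources used here do not say if the paired arrays stand for separate plantings, so p-values measure only the spread between arrays.

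A gene carried in an extra copy is in general transcribed from each copy, so its RNA is often close to proportional to copy number, which is called a gene dosage effect. Where the RNA of an extra copy stays near the diploid level the gene is called dosage compensated. Products that assemble into complexes, such as ribosomal proteins and chaperonins, are often discussed in this setting because an unpaired subunit is of little use to the cell. Genes outside the extra chromosome can also change in an aneuploid, and such changes are called trans effects.

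The 6 arrays had median probe set signals of 155 to 171, and log2 signals of the 650 genes correlated at 0.980 to 0.990 between the 2 arrays of a karyotype, a correlation across genes, which are no independent replicates. Of the RNA quality controls the one for ubiquitin moved with karyotype. Its log2 ratio of the 3′ over the 5′ probe set was 1.75 (WT), 1.62 (*AAA*) and 1.24 (*AAa*), where paired arrays lay within 0.22, and its part in the results was not tested. Those for actin (3.71, 3.52 and 3.19) and GAPDH (0.06, 0.29 and 0.27) differed by less than their largest gaps between paired arrays, 0.66 and 0.41. RCA, the rubisco activase gene of photosynthetic leaf cells and the only marker of the leaf list with a single-gene probe set, had a signal of 42830 to 46456 in WT, 39283 to 48047 in *AAA* and 28104 to 32034 in *AAa*. RCA lies on Chr.2 beyond AUR2, so it has 3 copies in *AAA* and 2 in WT and *AAa*. The root marker PYK10 stayed below 47 on every array, under the brightness threshold. Its signal was 2.87 to 3.14 in WT, 9.42 to 23.8 in *AAA* and 28.5 to 46.4 in *AAa*. PYK10 lies in the Chr.3 stretch described here and so has 3 copies in *AAa*. No flower, seed or senescence marker of the lists used here was paired with a single-gene probe set. In pooled leaves, the number of cells of a type, the RNA per cell and the copy number of the marker cannot be told apart.

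The first comparison asks how the RNA of these genes followed their copy number in *AAa*. Nearly all of them were above the WT level: the ratio of *AAa* to WT was above 1 for 608 of the 650 (93.5%), and the median gene was 1.42-fold higher (log2 0.50, quartiles 0.29 and 0.69). Exact proportion to copies would be 1.5-fold, or log2 0.58. Over all expressed genes the median log2 ratio was 0.05, and over the 5469 genes of the non-triplicated chromosome parts it was -0.0016. Both *AAa* arrays gave the same shift, with medians of 0.50 and 0.51 against the WT mean, while the 2 arrays of *AAa* differed from each other by a median of 0.03 and those of WT by 0.01.

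In the limma fit across all expressed genes, with Benjamini-Hochberg adjustment, 350 of the 650 genes (53.8%) rose in *AAa* against WT, beside a background of 14.3% of all expressed genes and 6.95% of the non-triplicated genes. Only 2 fell (0.308%), beside 6.82% and 7.81%. Both *AAa* arrays lay above both WT arrays for 533 genes (82.0%), beside 34.8% of all expressed genes, and below both for 14 (2.15%), beside 24.3%. The single-gene calls depended on the number of arrays more than the shift did: 226 genes rose without the first *AAa* array, 201 without the second, and 252 and 261 without the WT arrays, and 157 of the 350 were called in each of the 6 fits that left out 1 array. Over those fits the median log2 ratio lay between 0.48 and 0.51. Without the brightness threshold 171 of 994 genes rose, with a median of 0.42.

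The ratios spread widely around their median. They ran from log2 -0.76 to 1.82 with an SD of 0.34 across genes, where the median standard error of a single gene's ratio was 0.16. A similar spread was seen without a change in copies. The SD was 0.37 over the non-triplicated genes in the same comparison, and 0.32 over these 650 genes in *AAA* against WT. Most genes, 365 of 650 (56.2%), had a fold between 1.25 and 1.75. Another 99 lay between 1.1 and 1.25, 67 between 0.9 and 1.1, and 17 below 0.9. At the other end 59 genes lay between 1.75 and 2 and 43 at 2 or more.

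**Figure D1:**
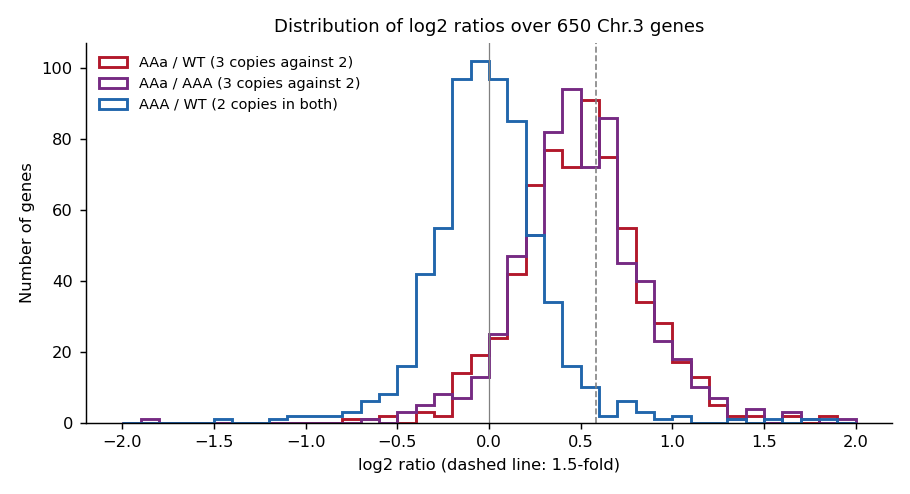
Number of genes (vertical axis) by log2 signal ratio (horizontal axis, bins of equal width) over the 650 Chr.3 genes for *AAa* against WT, *AAa* against *AAA* and *AAA* against WT; lines mark no change and 1.5-fold. The 2 comparisons of 3 copies with 2 lie around medians of 0.50 and 0.48, and the comparison of 2 copies with 2 lies around -0.01.

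The comparison of *AAa* with *AAA* sets 3 copies against 2 between plants that both have an extra chromosome. It shares its *AAa* arrays with the comparison above. The median gene was 1.398-fold higher in *AAa* (log2 0.48), and 343 genes (52.8%) rose against *AAA*, beside 10.7% of all expressed genes and 7.13% of non-triplicated genes. A single gene, AT3G16530, was lower (0.154%, beside 11.7% and 7.42%). The number higher was 219 without the first *AAA* array, 233 without the second, and 230 and 196 in the fits that left out an *AAa* array, and 153 were called in every fit that left out 1 array. Both *AAa* arrays lay above both *AAA* arrays for 555 genes (85.4%), beside 30.5% of all expressed genes, and below both for 18 (2.77%), beside 31.1%. For 492 genes (75.7%) both *AAa* arrays lay above all 4 arrays of WT and *AAA*, beside 21.0% of all expressed genes and 16.2% of non-triplicated genes, and for 6 (0.923%) they lay below all 4, beside 15.7% and 16.4%.

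The comparison of *AAA* with WT has the same 2 copies of these genes on both sides. Here the genes stayed near the WT level as a group: the median log2 ratio was -0.01, beside 0.04 over all expressed genes and -0.01 over non-triplicated genes. Of the 650, 28 rose (4.31%) and 19 fell (2.92%), beside 11.4% and 3.04% of all expressed genes and 3.82% and 3.49% of non-triplicated genes. Both *AAA* arrays lay above both WT arrays for 148 genes (22.8%) and below both for 156 (24.0%). The shares were 32.4% and 21.5% of all expressed genes, and 23.3% and 25.3% of non-triplicated genes. Fewer were called when an *AAA* array was missing, with 15 that rose without the first and 9 without the second, and 8 of the 28 and 7 of the 19 were called in every fit that left out 1 array. The balance of rises and falls depended on scaling, with 21 that rose and 43 that fell as deposited, 19 and 43 centred on all expressed genes, and 18 and 44 after quantile normalization. Under each of these scalings the median log2 ratio was -0.09 for the 650 genes and -0.09 for the non-triplicated genes, so the shift was not particular to this stretch. The comparison shares its WT arrays with that of *AAa*.

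The shift in *AAa* covered the whole stretch. In 10 consecutive blocks of 65 genes, the median log2 ratio of *AAa* to WT lay between 0.42 and 0.58, and between 30 and 39 genes of each block rose. The lowest medians were those of the blocks from AT3G12150 to AT3G14075 and from AT3G04820 to AT3G06570, both 0.42, and the highest was that of the block that ends at the breakpoint, from AT3G18035 to AT3G20015, at 0.58. The same blocks had medians of 0.44 to 0.58 against *AAA* and of -0.05 to 0.06 for *AAA* against WT. Over 649 pairs of neighbouring genes the correlation of their log2 ratios to WT was 0.07, a description over genes that share arrays.

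**Figure D2:**
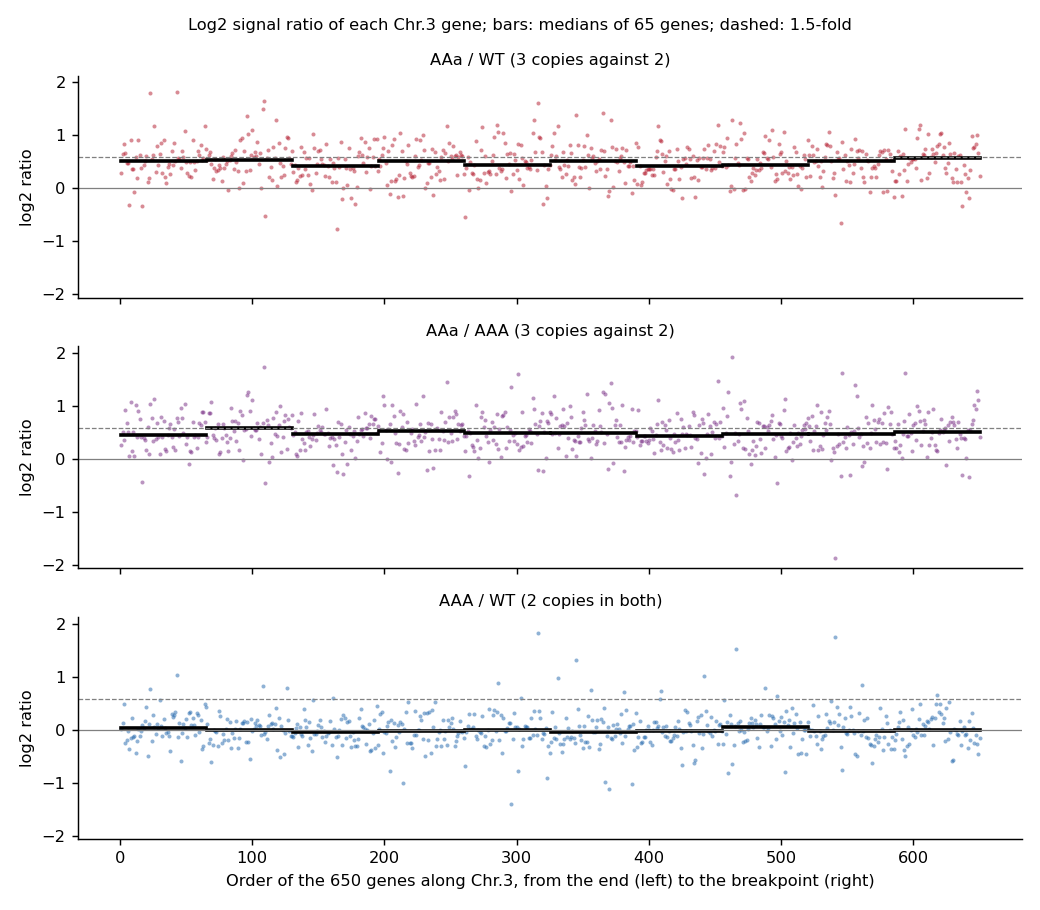
Log2 signal ratio (vertical axes) of the 650 genes in their order along Chr.3 (horizontal axis, from the chromosome end to the breakpoint) for the 3 comparisons; bars are medians of blocks of 65 genes, and lines mark no change and 1.5-fold. With 3 copies the bars lie between 0.42 and 0.58 along the stretch, and with 2 copies in both karyotypes between -0.05 and 0.06.

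The 5 expressed genes nearest to the breakpoint were AT3G19910, AT3G19950, AT3G19970, AT3G19990 and AT3G20015, and the gene table used here names none of them. AT3G19910 had signals of 908 and 771 in WT, 677 and 733 in *AAA* and 1398 and 1465 in *AAa*. It rose in *AAa* by log2 0.77 against WT (SE 0.13, limma adjusted p = 0.000491) and by 1.02 against *AAA*. AT3G19950, with 544 and 419 in WT, 416 and 477 in *AAA* and 833 and 874 in *AAa*, rose by 0.84 and 0.94. In both genes the *AAa* arrays lay above the other 4.

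AT3G19970 was at 1.02 against WT and lost the call without WT array 1 (0.67) or *AAa* array 2 (0.83). AT3G19990 was at 0.66 and lost it without WT array 1 (0.48), *AAa* array 1 (0.72) or *AAa* array 2 (0.61). AT3G20015, the last expressed gene before the breakpoint, had signals of 113 and 116 in WT and 116 and 157 in *AAa*, a log2 ratio of 0.24 (SE 0.24, limma adjusted p = 0.524). One of its *AAa* arrays lay at the WT level and the other above it, so a difference beyond the spread of its arrays was not detected for the gene nearest the join.

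A second test in the same fit asked which genes departed from 1.5-fold, adjusted over the 1067 expressed genes with 3 copies in *AAa*. Of the 650 genes 85 (13.1%) lay below 1.5-fold, beside 11.4% of all genes with 3 copies, and 29 (4.46%) lay above it, beside 4.69%. For the 409 genes of Chr.2 up to AUR2, which the same *AAa* arrays measured in 3 copies, the median log2 ratio was 0.54, with 8.31% below and 4.4% above. Whether the Chr.3 and Chr.2 stretches differ was not tested. For the remaining 536 genes a departure from 1.5-fold was not detected, which does not show that they followed copy number exactly.

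These calls rest heavily on each array. With a WT array missing, array 1 or 2, the number below 1.5-fold was 43 or 38 and the number above 19 or 16. With an *AAa* array missing, again array 1 or 2, the numbers were 27 or 34 below and 6 or 8 above. In every fit that left out 1 array, 18 of the 85 and 2 of the 29 were called. Without an intensity trend in limma 33 lay below and 5 above, and without the brightness threshold 43 and 3. For these 85 the median log2 ratio was 0.02 and the median signal 1151, where the median signal of all 650 was 436. In *AAA*, where they had 2 copies, 8 of the 85 fell and 1 rose, while 2.92% of all 650 fell and 4.31% rose. The 85 were chosen by their ratio to the same WT arrays, so nothing is read from these counts.

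The departure from 1.5-fold varied with brightness. When the 650 genes were split by mean signal into 5 bins of 130, the median log2 ratio of *AAa* to WT was 0.47, 0.50, 0.61, 0.54 and 0.39 from the dimmest to the brightest. The number below 1.5-fold was 3, 15, 8, 17 and 42. The number that rose against WT was 34, 65, 91, 89 and 71, and the median standard error fell from 0.24 in the dimmest bin to 0.12 in the brightest. In the 409 genes of Chr.2 up to AUR2 the medians of such bins were 0.53, 0.53, 0.56, 0.56 and 0.47, again with the lowest in the brightest bin. The numbers below 1.5-fold in these bins of 81 or 82 genes were 7, 7, 4, 6 and 10, a smaller spread than on Chr.3.

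The 6 brightest genes had log2 ratios of 0.23 or less. AT3G11630, the brightest, had signals of 19063 and 21630 in WT, 21059 and 20829 in *AAA* and 18194 and 18388 in *AAa*. Its *AAa* arrays were the lowest of the 6, and its log2 ratio to WT was -0.15 (SE 0.12), below 1.5-fold with a limma adjusted p of 0.000827 and in every fit that left out 1 array, though not without the brightness threshold (-0.23). SAMDC, S-adenosylmethionine decarboxylase of polyamine synthesis, had 15700 and 14132 in WT and 18685 and 16346 in *AAa*, with 23347 on *AAA* array 2. Its log2 ratio was 0.23 (SE 0.17), which did not depart from 1.5-fold (adjusted p = 0.169).

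The next in brightness, AT3G09200 (of the ribosomal protein list below), AT3G16370, AT3G13120 and PIFI, had log2 ratios of 0.19, 0.20, 0.17 and 0.23, none past the threshold against WT. PIFI is a chloroplast protein first known from a chlorophyll fluorescence trait. All 4 were called below 1.5-fold, with adjusted p of 0.0388, 0.0374, 0.0238 and 0.0388, and none of these calls held in every fit that left out 1 array. All 4 calls were lost without WT array 1 (0.22, 0.20, 0.14 and 0.24), without WT array 2 (0.16, 0.20, 0.20 and 0.22) and without *AAa* array 1 (0.28, 0.15, 0.25 and 0.29), as well as after quantile normalization (0.40, 0.37, 0.34 and 0.34).

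Of the functional lists used here, that of the ribosomal proteins of the cytosol had the most genes measured among the 650. The list came from textbook membership by locus, since the gene table names none of its loci, and 19 of its 26 loci were measured among the 650. As a group they lay above WT but lower than the other genes: the median was 1.17-fold (log2 0.23, range -0.01 to 0.71), where the other 631 genes had a median of 0.51. The medians on the 2 *AAa* arrays were 0.25 and 0.29. In *AAA*, with 2 copies, the list median was 0.02, and none of the 19 rose or fell.

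In *AAa* 9 of the 19 (47.4%) rose against WT, close to the 54.0% of the other 631, and none fell, while 10 (52.6%) were below 1.5-fold, against 75 of the others (11.9%). Most of the list is bright, with 16 of the 19 in the brightest bin. Among these 16 the median was 0.22 and 10 (62.5%) were below 1.5-fold, while the other 114 genes of that bin had a median of 0.39 and 32 (28.1%) below. The 3 dimmer members had a median of 0.63, and none was below. Brightness and membership of the list thus moved together, and the part of each was not tested. The ribosomal proteins also come in families of near-identical copies, and whether their probe sets detect copies elsewhere in the genome was not tested.

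Within the list some loci lay near 1.5-fold against WT. AT3G09630 had 5431 and 5339 in WT, 5573 and 5748 in *AAA* and 7732 and 7648 in *AAa*, and it rose by log2 0.51 (SE 0.11, limma adjusted p = 0.00302). AT3G11510 had 4455 and 4774 in WT, 5374 and 5080 in *AAA* and 6478 and 6767 in *AAa*, and it rose by 0.52 (SE 0.11, adjusted p = 0.00314). In both the *AAa* arrays lay above all others. AT3G02190 and AT3G11250 rose by 0.71 and 0.63, and these 4 were called against WT in every fit that left out 1 array. Against *AAA*, which also has 2 copies, the 4 were lower, at 0.44, 0.34, 0.42 and 0.37 in the order given. There AT3G02190 and AT3G11250 did not pass the threshold (limma adjusted p = 0.0679 and 0.064).

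At the other end AT3G14600 had 2707 and 2777 in WT, 2347 and 2391 in *AAA* and 2898 and 2549 in *AAa*, a log2 ratio to WT of -0.01 (SE 0.11). It was below 1.5-fold with a limma adjusted p of 0.00241 and in every fit that left out 1 array, the only list member of which this held. AT3G06700 was at 0.07 and lost that call without *AAa* array 2 (0.21) or without an intensity trend (0.07). For the list as a whole the number below 1.5-fold was 5 without WT array 1, and 2 when the other WT array or either *AAa* array was missing. The number that rose was 5 without WT array 1 or without *AAa* array 2. Without an intensity trend 4 of the list rose and 1 was below 1.5-fold, and without the brightness threshold 1 rose and 2 were below. These fits for the list were added after its values had been seen. Its median was 0.14 with arrays centred on all expressed genes and 0.31 after quantile normalization. With 1 array left out it ran from 0.23 to 0.32 and stayed below that of the other genes, 0.49 to 0.51.

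**Figure D3:**
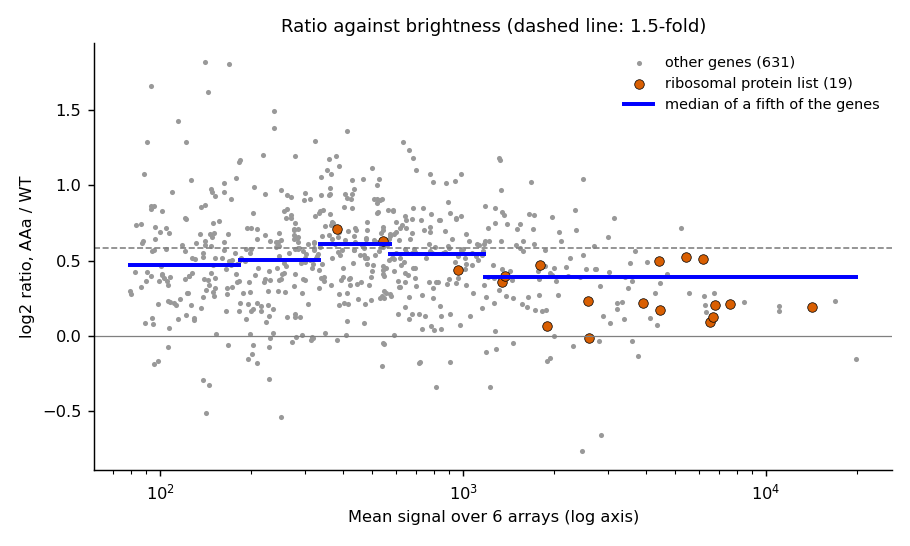
Log2 ratio of *AAa* to WT (vertical axis) against mean signal over the 6 arrays (horizontal axis, log scale) for the 19 members of the ribosomal protein list (orange) and the other 631 genes (grey); blue bars are medians of the 5 brightness bins of 130 genes and span the signals of each bin. The median falls to 0.39 in the brightest bin, which holds 16 of the 19 ribosomal loci.

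The gene table names 78 of the 650 genes, by symbol or synonym. They were sorted into roles after their values had been seen, so the roles describe and test nothing. Of the 78, 72 were above the WT level in *AAa*, 36 rose, none fell, and the median log2 ratio was 0.42, where 93.5% of all 650 were above WT and 53.8% rose. Against *AAA* 43 rose, and in *AAA* against WT 3 rose and 5 fell. The 36 calls were partly lost under other settings, with 30 kept as deposited, 24 centred on all expressed genes, 27 after quantile normalization, 27 without an intensity trend and 17 without the brightness threshold. Of the 36 calls 16 held in every fit that left out 1 array, and the genes described below as having risen are among those unless an array is named.

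Among enzymes of the mitochondria and core metabolism 8 of 12 rose. IDH-VI (AT3G09810), a subunit of the NAD-dependent isocitrate dehydrogenase of the citric acid cycle, stood out. It had signals of 462 and 407 in WT, 514 and 588 in *AAA*, and 1046 and 1069 in *AAa*. The *AAa* arrays lay at about the same level and far above the other 4. The gene was 2.44-fold higher than in WT (log2 1.29, SE 0.14, limma adjusted p = 1.11e-05) and departed upward from 1.5-fold (adjusted p = 0.00267). AT3G01800, which the table does not name, was the only other of the 650 genes to be above 1.5-fold in every fit that left out 1 array.

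DJ1D, a glyoxalase of the DJ-1 family, had 1884 and 1642 in WT, 1375 and 1454 in *AAA* and 2625 and 2602 in *AAa*. It rose by log2 0.57 against WT (SE 0.12, limma adjusted p = 0.00242). SDRB, a peroxisomal reductase of fatty acid breakdown, rose by 0.61 (SE 0.12, adjusted p = 0.00153). Against *AAA* DJ1D was at log2 0.89 and SDRB at 0.55. Against WT both were close to 1.5-fold. TSC10A, a reductase of sphingolipid synthesis, was not: it had 810 and 803 in WT, 597 and 686 in *AAA*, and 717 and 715 in *AAa*, with the *AAa* arrays below both WT arrays. Its log2 ratio was -0.17 (SE 0.13, adjusted p = 0.385) and it was below 1.5-fold in every fit that left out 1 array.

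In photosynthesis and the plastid the 6 named genes lay between 0.18 and 0.90, and 4 passed the threshold, none of them in every fit that left out 1 array. NANA, an aspartic protease of the chloroplast, had 220 and 191 in WT, 345 and 337 in *AAA* and 321 and 459 in *AAa*, and was at log2 0.90 (limma adjusted p = 0.00214), a call lost without *AAa* array 2 (0.65). It was at 0.73 in *AAA* too (adjusted p = 0.0112, lost without WT array 2, 0.63, *AAA* array 1, 0.71, or *AAA* array 2, 0.75), and the arrays of both trisomics overlapped. HEME1, uroporphyrinogen decarboxylase of haem and chlorophyll synthesis, had 4655 and 4194 in WT, 3509 and 3561 in *AAA*, and 5208 and 6097 in *AAa*. Its *AAa* arrays lay above the rest, with a log2 ratio of 0.35 to WT (SE 0.12, limma adjusted p = 0.0423) and 0.67 to *AAA* (adjusted p = 0.000625). The difference from *AAA* held in every fit that left out 1 array, and that from WT in 1 of them, without *AAa* array 1 (0.46), the others giving 0.24 to 0.43. It was also lost with the arrays left as deposited (0.30), with a replicate block (0.35), and when all expressed genes were used for centring (0.26). LYC, a lycopene cyclase of carotenoid synthesis, was at 0.45 to WT, a call lost without WT array 1 (0.19), *AAa* array 2 (0.29) or either *AAA* array (0.45 each) and under each other scaling (0.35 to 0.42), and at 0.88 to *AAA*. ATAB2, which is needed for translation of photosystem subunits, was at 0.39, and its call went without WT array 2 (0.37) or either *AAa* array (0.38 and 0.41) and with arrays centred on all expressed genes (0.30). HEME1, LYC and ATAB2 each lost the call to WT also without the brightness threshold and without an intensity trend.

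Genes of protein folding and the ubiquitin system were mixed. UBC32, a ubiquitin-conjugating enzyme of the endoplasmic reticulum, had 843 and 816 in WT, 548 and 634 in *AAA*, and 1294 and 1401 in *AAa*. It rose by log2 0.70 against WT (SE 0.13, limma adjusted p = 0.00107) and by 1.19 against *AAA*. In *AAA* it was below WT at -0.49 (adjusted p = 0.0144), a call lost without WT array 1 (-0.47), *AAA* array 1 (-0.39) or an intensity trend (-0.49). Cpn60beta2, a subunit of the plastid chaperonin, went the other way. It had 2170 and 2300 in WT, 1677 and 1354 in *AAA*, and 1957 and 2024 in *AAa*, so both trisomics lay below WT on every array.

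In *AAa* the log2 ratio of Cpn60beta2 to WT was -0.17 (SE 0.12, limma adjusted p = 0.380), below 1.5-fold in every fit that left out 1 array. In *AAA* it was -0.57 (adjusted p = 0.00497), a call lost without *AAA* array 2 (-0.41). In the chaperone list from textbook membership, 2 of 5 measured loci rose, none fell, and the median was 0.34. AT3G18190, which the table does not name, rose by 0.60 (SE 0.12, adjusted p = 0.00222). The E3 ligases PUB24 and PUB25 were at 0.57 and 0.30, of which PUB24 lost its call without *AAa* array 1 (0.41) or either WT array (0.59 and 0.56).

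Of 9 genes of transcription and chromatin 3 rose against WT and 6 against *AAA*. BZIP28, a membrane-bound transcription factor of the response to unfolded protein in the endoplasmic reticulum, had 881 and 686 in WT, 655 and 719 in *AAA* and 1223 and 1540 in *AAa*. It rose by log2 0.82 (SE 0.15, limma adjusted p = 0.00104), with both *AAa* arrays above the other 4. HYH, a partner of HY5 in light signalling, was at 0.63 and lost the call without WT array 2 (0.47) or *AAa* array 1 (0.44), and with arrays centred on all expressed genes or quantile normalized (0.54 in both). MYR2, a transcription factor of the MYB-related group, had 157 and 165 in WT, 185 and 130 in *AAA* and 127 and 100 in *AAa*, and lay at -0.51 (adjusted p = 0.134). MYR2 was below 1.5-fold (adjusted p = 0.00532), except without *AAa* array 2 (-0.34).

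In RNA processing and nuclear transport 3 of 6 rose. TRZ4, a tRNase Z that trims the 3′ end of tRNA precursors, had 478 and 430 in WT, 569 and 542 in *AAA* and 823 and 794 in *AAa*, and rose by log2 0.83 (SE 0.13, limma adjusted p = 0.000373). LSM1B, part of a complex that promotes mRNA decapping, had 352 and 354, 276 and 307, and 579 and 559 in the same order, and rose by 0.69 (SE 0.14, adjusted p = 0.003). The *AAa* arrays of both lay above all others. XPO1B, an exportin of the nuclear pore route, was at 0.52 (adjusted p = 0.04) and lost the call in 4 of the 6 fits that left out 1 array, with 0.40 to 0.64, and under each other scaling (0.43 to 0.47). The remaining 3 lay between 0.37 and 0.45.

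Signalling genes had the highest median of the roles, log2 0.60, with 4 of 6 that rose. SEC, an O-linked N-acetylglucosamine transferase, had 804 and 778 in WT, 791 and 799 in *AAA* and 1215 and 1527 in *AAa*. It rose by 0.78 (SE 0.13, limma adjusted p = 0.000592), while the WT and *AAA* arrays overlapped at about the same level. SPY, the related enzyme known from gibberellin signalling, was at 0.36 (adjusted p = 0.153). ATSIK, a protein kinase, rose by 0.72 (SE 0.17, adjusted p = 0.00564). RAPTOR1, a subunit of the TOR kinase complex, was at 0.61 and the gibberellin receptor GID1A at 0.57. RAPTOR1 lost the call without WT array 2 (0.54) or either *AAa* array (0.61 in both), and GID1A without WT array 1 (0.46) or *AAa* array 1 (0.45).

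Of 13 genes of membrane traffic, autophagy and the cytoskeleton 5 rose and all 13 were above WT. APG8H, a member of the ATG8 family that coats autophagosomes, had 2894 and 2254 in WT, 2975 and 2631 in *AAA* and 4928 and 3911 in *AAa*, and rose by log2 0.78 (SE 0.14, limma adjusted p = 0.00101). PRA8, of the prenylated Rab acceptor family, had 1148 and 1082, 1109 and 1079, and 1821 and 2146, and rose by 0.83 (SE 0.12, adjusted p = 0.000208). VPS60.1, of the ESCRT machinery for endosomal sorting, rose by 0.68, and KINESIN-13A, a microtubule motor, by 0.56. Other genes of this role lay low, such as TPLATE of endocytosis at 0.12 (adjusted p = 0.717) and the actin gene ACT11 at 0.15 (adjusted p = 0.574). The 3 genes of replication and division, PSF2, DRT100 and BUB3.1, were at 0.37, 0.25 and 0.13, and none passed the threshold.

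Among 9 cell wall, secreted or sugar-conjugating enzymes 4 rose. BGLU25, of the beta-glucosidase family, had 1288 and 1508 in WT, 1154 and 1215 in *AAA* and 2532 and 3159 in *AAa*, and rose by log2 1.02 (SE 0.13, limma adjusted p = 6.77e-05). The carboxypeptidase-like genes SCPL49 and SCPL27 differed. SCPL49 had 1008 and 1034 in WT, 848 and 959 in *AAA* and 1655 and 1453 in *AAa*, and rose by 0.60 (SE 0.12, adjusted p = 0.00268). SCPL27 had 298 and 369 in WT, 218 and 195 in *AAA* and 193 and 271 in *AAa*, with both *AAa* arrays below WT, and lay at -0.54 (SE 0.19, adjusted p = 0.0585).

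SCPL27 was below 1.5-fold in every fit that left out 1 array, and in *AAA* it lay at -0.69 (limma adjusted p = 0.0228), a call lost without WT array 2 (-0.53) or either *AAA* array (-0.77 and -0.61). Of 4 membrane transporters the sugar transporters SWEET2 and SWEET16 were far apart. SWEET2 was at 0.13 to WT (adjusted p = 0.500). SWEET16, a transporter of the vacuole membrane, had 71.5 and 121 in WT, 62.2 and 48.9 in *AAA* and 212 and 136 in *AAa*, and lay at 0.87 to WT (SE 0.31, adjusted p = 0.0561) and 1.62 to *AAA* (adjusted p = 0.00123).

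**Figure D4:**
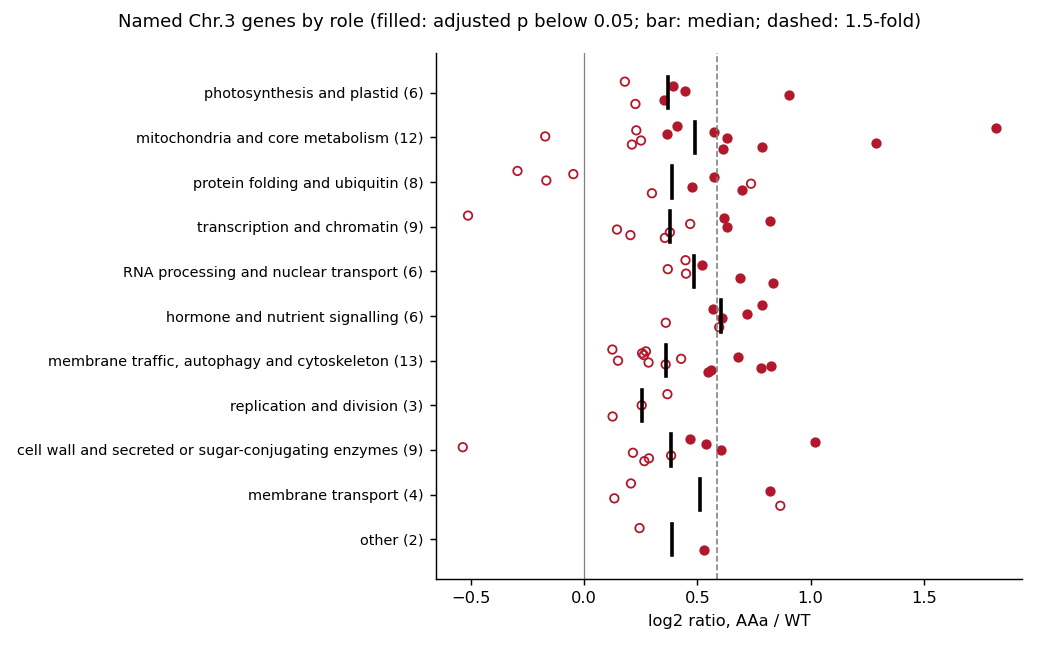
Log2 ratio of *AAa* to WT (horizontal axis) of the 78 genes that the gene table names, by role (vertical axis, number of genes in brackets); filled points passed limma's adjusted p of 0.05, bars are medians, and lines mark no change and 1.5-fold. Of the 78 points 72 lie above 0, and the role medians lie between 0.25 and 0.60.

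The genes with the largest rises were mostly dim. AT3G02280 (synonym TAH18, a flavin-containing reductase) had 111 and 47.5 in WT, 136 and 165 in *AAA* and 226 and 291 in *AAa*, a log2 ratio of 1.82 (SE 0.31, limma adjusted p = 0.000616). Its WT mean, 72.8, lay under the brightness threshold, and the ratio ran from 1.203 without WT array 2 to 2.43 without WT array 1. AT3G01800 had 82.4 and 106 in WT, 130 and 193 in *AAA* and 317 and 335 in *AAa*, a rise of 1.80 (SE 0.22, adjusted p = 4.99e-05). In both genes *AAa* lay highest and *AAA* between, without overlap between karyotypes.

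AT3G04010 had 44.8 and 93.6 in WT, 57.3 and 65.9 in *AAA* and 212 and 197 in *AAa*, and rose by log2 1.66 (SE 0.31, limma adjusted p = 0.00149). Only the *AAa* arrays stood apart, and through them alone the gene passed the brightness threshold, its means being 64.8 in WT and 61.4 in *AAA*. A further 8 of the 12 largest rises are not named in the table: AT3G09860 (1.62), AT3G04000 (1.496), AT3G11580 (1.43), AT3G10930 (1.38), AT3G03610 (1.36), AT3G04350 (1.297), AT3G11745 (1.29) and AT3G14280 (1.29). IDH-VI, described above, completed them. AT3G11745 and AT3G14280 lost the call without *AAa* array 2 (1.16 and 1.23), and AT3G14280 too passed the brightness threshold only through *AAa*.

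Some of these had also risen in *AAA*, where no extra copy is present. AT3G09860 had 54.2 and 78.0 in WT, 205 and 255 in *AAA* and 218 and 183 in *AAa*, so that the trisomics overlapped and lay above WT. It was at log2 1.82 in *AAA* (SE 0.23, limma adjusted p = 8.67e-05), and its ratio of *AAa* to *AAA* was -0.20 (adjusted p = 0.598). AT3G10930 had 131 and 124 in WT, 302 and 334 in *AAA* and 423 and 260 in *AAa*, with 1.32 in *AAA* (adjusted p = 0.000442) and 0.06 between the trisomics (adjusted p = 0.871). AT3G04000, at 0.82 in *AAA* (adjusted p = 0.00881, lost without WT array 1, 0.61, or *AAA* array 1, 0.64), had a ratio of 0.67 between the trisomics (adjusted p = 0.0207, lost without *AAA* array 2, 0.49, or either *AAa* array, 0.56 and 0.79). AT3G01800 was at 0.76 in *AAA* (adjusted p = 0.0301), a call lost in 4 of the 6 fits that left out 1 array, with 0.47 without *AAA* array 2, and under each other scaling (0.68). Both comparisons with WT share the WT arrays.

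Only AT3G05730 and AT3G16670 fell in *AAa* in spite of the third copy. AT3G05730 had 3435 and 3197 in WT, 2207 and 2463 in *AAA* and 1999 and 1915 in *AAa*, falling by 0.76 on the log2 scale (SE 0.11, limma adjusted p = 0.000242). In *AAA* it fell by 0.51 (adjusted p = 0.00604), a call lost without *AAA* array 1 (-0.43). AT3G16670 had 3788 and 3374 in WT, 2401 and 3367 in *AAA* and 2061 and 2497 in *AAa*, at -0.66 (SE 0.15, adjusted p = 0.00502), and lost the call without WT array 1 (-0.57) or *AAa* array 1 (-0.52). Both were bright, both had *AAa* arrays below both WT arrays, and the gene table names neither.

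Another group stayed at or under the WT level without passing the test for a fall. AT3G19680 had 885 and 894 in WT, 882 and 858 in *AAA* and 659 and 751 in *AAa*, at log2 -0.34 (SE 0.13, limma adjusted p = 0.0665). AT3G01690 was at -0.34 and AT3G19850 at -0.18 (adjusted p = 0.184 and 0.350). These 3 were below 1.5-fold in every fit that left out 1 array. AT3G01350, LUL4 (a RING-type ubiquitin ligase), AT3G10030, AT3G05900 and AT3G13160 lay between -0.32 and -0.18. AT3G01350 was below 1.5-fold except without WT array 2 (-0.17) or either *AAa* array (-0.32 and -0.33), and AT3G13160 except without the same arrays (0.03, -0.13 and -0.23). LUL4 lost that call without *AAa* array 1 (-0.06) or either WT array (-0.22 and -0.37), AT3G10030 without WT array 1 (-0.19) or *AAa* array 2 (-0.10), and AT3G05900 without *AAa* array 2 (-0.09).

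Against *AAA* the largest rises were those of AT3G14280 (log2 1.93), AT3G04010 (1.73), SWEET16 (1.62), AT3G18250 (1.62), AT3G09490 (1.61) and AT3G13950 (1.47). Of these AT3G14280, AT3G04010, SWEET16 and AT3G09490 had a mean over WT and *AAA* below the brightness threshold and passed it only through *AAa*, which favours their rank. AT3G18250 had 277 and 411 in WT, 245 and 235 in *AAA* and 694 and 780 in *AAa*, and AT3G13950 had 190 and 268, 205 and 169, and 627 and 426. In both the *AAa* arrays were the highest 2. In AT3G18250 both *AAA* arrays lay below both WT arrays, at -0.49 (limma adjusted p = 0.0737), and in AT3G13950 the WT and *AAA* arrays overlapped. AT3G09490 had 97.1 and 104 in WT, 59.8 and 57.5 in *AAA* and 188 and 170 in *AAa*, where *AAA* was lowest on both arrays. Its ratio of *AAA* to WT was -0.77 (SE 0.24, limma adjusted p = 0.0417), a call lost in every fit that left out 1 array, with ratios from -0.82 to -0.73.

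The largest changes in *AAA*, where these genes have 2 copies, were often not matched in *AAa*. AT3G16530 had 2580 and 2620 in WT, 8473 and 8891 in *AAA* and 2172 and 2600 in *AAa*. The *AAA* arrays stood alone, at a log2 ratio of 1.74 to WT (SE 0.12, limma adjusted p = 5.98e-08), while *AAa* lay at -0.13 to WT (adjusted p = 0.487) and -1.87 to *AAA* (adjusted p = 1.98e-08). AT3G14395 had 43.8 and 66.4 in WT, 157 and 153 in *AAA* and 81.3 and 115 in *AAa*, and rose in *AAA* by 1.52 (adjusted p = 0.00176). It was at 0.84 in *AAa* (adjusted p = 0.0457, kept in only 1 of the 6 fits that left out 1 array and lost under each other scaling, 0.68 to 0.80), its difference between the trisomics was not called (-0.68, adjusted p = 0.1), and its WT mean of 53.9 was below the brightness threshold. The remaining 2 of the 6 largest rises in *AAA*, AT3G02280 (1.04) and AT3G13672 (synonym SINA2, a ubiquitin ligase, 1.01), lost the call in 5 and 4 of the 6 fits that left out 1 array, with 0.42 and 0.65 without WT array 2, and both lost it after quantile normalization (0.92 and 0.91) or centring on all expressed genes (0.96 and 0.93). AT3G13672 had mean signals of 55.7 in WT, 112 in *AAA* and 92.8 in *AAa*. Over WT and *AAa* alone, AT3G13672 and AT3G14395 lay below the brightness threshold. They passed it only through *AAA*, which favours their rank.

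Fes1A (AT3G09350), a partner of the Hsp70 chaperone known from heat tolerance, had the largest fall in *AAA*. It had 744 and 779 in WT, 299 and 275 in *AAA* and 734 and 739 in *AAa*. The *AAA* arrays were far below the other 4, at -1.41 on the log2 scale (SE 0.13, limma adjusted p = 2.95e-06), and *AAa* lay at -0.05 to WT (adjusted p = 0.845). AT3G11690 had 237 and 203 in WT, 121 and 84.0 in *AAA* and 222 and 201 in *AAa*, at -1.12 in *AAA* (adjusted p = 0.00214) and -0.06 in *AAa*. AT3G12050 had 1490 and 1856, 959 and 691, and 1511 and 1624, at -1.03 in *AAA* (adjusted p = 0.00026) and -0.09 in *AAa*. In these 3 genes WT and *AAa* overlapped or nearly met and *AAA* alone was low.

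AT3G07090 had 2853 and 2231 in WT, 1349 and 1175 in *AAA* and 2377 and 2192 in *AAa*, at log2 -1.003 in *AAA* (SE 0.13, limma adjusted p = 0.000109). AT3G11600 had 122 and 135, 71.9 and 57.6, and 159 and 142, at -0.996 (adjusted p = 0.0107), a call lost without WT array 2 (-0.92) or *AAA* array 2 (-0.84). AT3G10190 was at -0.90 (adjusted p = 0.035) and lost the call in 5 of the 6 fits that left out 1 array, with -0.68 without WT array 1 or *AAA* array 1. All 6 of these genes lay higher in *AAa* than in *AAA*, by 0.72 to 1.36, which was past the threshold for all but AT3G10190 (adjusted p = 0.0719). The 6 were chosen on the *AAA* arrays that this comparison shares, which favours such a difference. Since *AAa* differs from *AAA* both in these 3 copies and in the rest of Chr.2, the copy of the gene itself and the other parts of the karyotype cannot be told apart here.

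**Figure D5:**
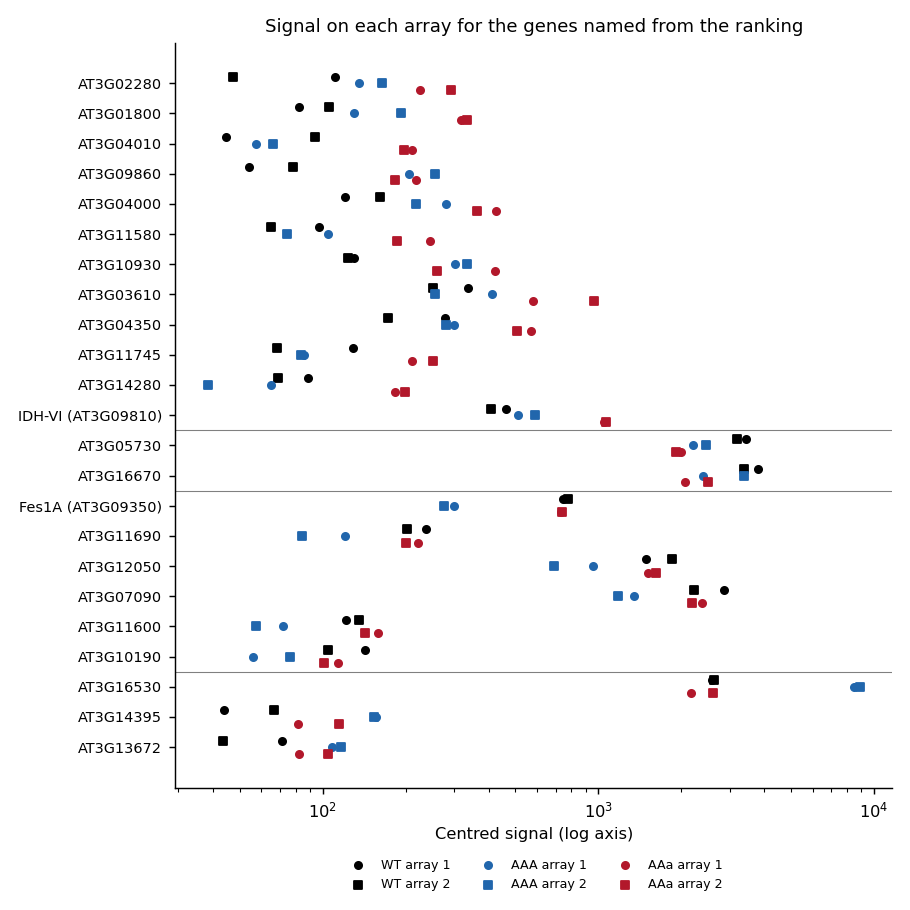
Centred signal (horizontal axis, log scale) on each array for, from top to bottom, the 12 largest rises in *AAa*, the 2 genes that fell in *AAa*, the 6 largest falls in *AAA* and 3 further rises in *AAA*; circles are arrays 1 and squares arrays 2 of WT, *AAA* and *AAa*. Fes1A is at 299 and 275 in *AAA* against 734 to 779 elsewhere, and AT3G16530 is at 8473 and 8891 in *AAA* against 2172 to 2620 elsewhere.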

How the data were processed

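Leaf RNA was measured on 6 ATH1 arrays, 2 for each karyotype, grouped by sample title. The deposited values are linear probe set intensity units that the authors made with GCOS (version not given in the sources used here), and their mean after trimming 2% at each end was 500.0 to 500.1 on every array. The normalization on which the study's own tests rested was not used here.

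Each array held 246 to 489 values under 1, which were raised to 1. Values were taken to log2 and centred on each array's median of the expressed non-triplicated genes (Chr.1, Chr.4, Chr.5 and Chr.3 beyond the breakpoint). The signals printed are these centred values. The brightness threshold was the 40th percentile over 22746 probe sets left after 64 controls were removed. Probe sets were named from a platform annotation table and RefSeq's gene table (names and order only, no coordinates): 13513 had 1 gene, 503 several and 8794 none, and 77 single-gene sets matched no locus. Of the 650 genes, 1 rested on a probe set marked as able to cross-hybridise and 3 had several expressed sets. No sequences were used here.

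A single fit of the 6 arrays was made in limma 3.58.1 (lmFit, eBayes with an intensity trend; R 4.3.3), with 3 residual and 13.5 prior degrees of freedom, two-sided, Benjamini-Hochberg adjusted over all 7246 expressed genes at 0.05 (over 1067 for the test against 1.5-fold). "Rose" and "fell" are used of what passed. The fit was tested on simulated data. The exact permutation test of 2 arrays against 2 cannot go below 0.333. The number of arrays limits the precision. In fits that left out an array, its remaining partner was taken to vary as other groups do.

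The genes, lists and roles were chosen with earlier results of these data known. Genes were named by rank: in *AAa* against WT the 12 largest rises, every fall, and the 10 lowest ratios among those below 1.5-fold that did not fall; in the other comparisons the 6 largest each way without overlap; the 6 brightest; the 5 nearest the breakpoint; and 2 to 4 per list with the smallest p. Genes named within roles were chosen after their values were seen. Beside the lists described in the text, carbon metabolism (3 measured, 2 rose), photosynthesis (6, 4 rose), transcription factors (4, 2 rose), redox (2, 1 rose), hormones (1, 1 rose), and lipids and membrane traffic (1 each, none rose) were counted; for the proteasome, sulfur, defence and transport lists no gene was measured among the 650. Other scalings, floors, filters, probe set choices, a variance without trend, a replicate block and left-out arrays were tried. Changes in *AAa* and in *AAA* share the WT arrays.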

Additional observations from a re-analysis of the deposited data

Results flagged for a closer look

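Of the 47 genes called in *AAA* against WT, 20 were also called in limma's test of *AAa* against *AAA*, so that their changes from WT differed between the trisomics. They were 15 of the 19 that fell in *AAA* and 5 of the 28 that rose. These genes were chosen on the *AAA* arrays that both comparisons share, which favours a difference, and 52.8% of all 650 genes were higher in *AAa* than in *AAA*.

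Of those that fell in *AAA*, AT3G09490 lay 1.61 higher in *AAa* than in *AAA* on the log2 scale, Fes1A (AT3G09350) 1.36, AT3G14200 1.26, AT3G11600 1.22, UBC32 (AT3G17000) 1.19, AT3G15450 1.13 and AT3G11690 1.07. AT3G04480 lay 0.995 higher, AT3G12050 0.94, AT3G07090 0.86, AT3G13440 0.84, AT3G19515 0.69, SP1L3 (AT3G02180) 0.67, AT3G06760 0.67 and Cpn60beta2 (AT3G13470) 0.40. Of those that rose in *AAA*, AT3G01800 lay 1.04 higher still in *AAa*, AT3G04000 0.67, AT3G06530 0.48 and AT3G05220 0.46, while AT3G16530 lay at -1.87. AT3G16530 was the only 1 of the 20 that was lower in *AAa*.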

How the results depend on the processing

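No called ratio of a named gene changed direction under the settings tried, nor did the medians of 3 copies against 2, while the median of *AAA* against WT, near 0, changed sign without *AAA* array 1 (0.0095). The arrays scaled as deposited, centred on all expressed genes, or quantile normalized gave a median log2 ratio of *AAa* to WT of 0.46, 0.41 and 0.42, 4 genes that fell under each, and for *AAA* against WT medians of -0.0913, -0.0931 and -0.0902 with 43, 43 and 44 genes that fell. As deposited the median against *AAA* was 0.52, and centring on all expressed genes gave 2 genes lower than in *AAA*. Above 1.5-fold were 15 genes after centring on all expressed genes and 18 after quantile normalization, which also left 18 that rose in *AAA*. These scalings moved the median of the non-triplicated genes in *AAa* against WT to between -0.095 and -0.048. In *AAA* against WT they moved it to between -0.094 and -0.089, close to the medians of the 650 genes. Without a brightness filter (994 genes of the stretch) 171 rose against WT, 194 against *AAA* and 12 in *AAA*, 10 fell in *AAA*, 43 were below and 3 above 1.5-fold, and the medians were 0.42, 0.41 and -0.0217. A filter at the 60th percentile gave medians of 0.52 and 0.50 with 3 copies against 2, 3 genes lower than in *AAA* and 17 that rose in *AAA*. Without an intensity trend 17 rose in *AAA*, 33 were below and 5 above 1.5-fold. Calls of single genes lost without the brightness filter or without an intensity trend are not all listed in the text. With the loci left out by the rule counted, 2 were lower than in *AAA*. The cause of these moves was not tested, except that a filter or a left-out array changes the genes or arrays tested.

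With 1 array left out, 201 to 321 genes rose and 1 to 3 fell in *AAa* against WT (median 0.48 to 0.51), 196 to 361 rose and 1 to 2 fell against *AAA* (0.47 to 0.51), 9 to 25 rose and 13 to 18 fell in *AAA* (-0.015 to 0.0095), and 27 to 74 were below and 6 to 23 above 1.5-fold. Deviations of arrays of the same replicate number had correlations of -0.052 to 0.041 over the 650 genes. Whether such arrays share more than a number was not tested. With a replicate block 341 rose against WT, 335 against *AAA*, 2 were lower than in *AAA*, and 83 were below and 30 above 1.5-fold. Brightness limited the precision: the median standard error was 0.24 for the dimmest 130 genes and 0.12 for the brightest.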
